A study of Homo sapiens with 12 samples.

Results

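The genes described here are the human protein-coding genes with 2 or more 3′ ends in use, and the measurement is how their transcripts were divided between an upstream (proximal) and a downstream (distal) end. A gene was a member if it had at least 2 regions that do not overlap, each with 200 or more counts summed over the 12 libraries, so the members were chosen on the counts themselves and their being expressed is no result. Of 20314 protein-coding genes in the files, 9370 had at least 1 such region and 807 had 2 or more. Among the members, 653 had 2 regions, 120 had 3, 27 had 4 and 7 had 5, and for those with more than 2 the pair was taken whose weaker region had the most counts. Just inside the limit lay *RPL24*, with 200 proximal and 21985 distal counts, and *GAMT*, with 200 and 882. Just outside it lay *CUL2*, with 324 and 199 counts, and *GTF2H2*, with 199 and 725.

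The libraries came from HepG2 cells, a human liver cancer line, and Ls174 cells, a human colon cancer line, grown for 24 h either without addition (control) or with 0.7 mg/ml of HME, an extract of the red seaweed *Hypnea musciformis*. This concentration is that of the sample labels, and the study's methods state a slightly higher one. Each line and treatment had 3 replicates, which the study describes as biological. All cells were labelled wild type and shared the same medium with fetal bovine serum, so the groups differ in line and HME alone as far as the labels state. RNA was read from its 3′ end with the QuantSeq method, and the total was between 1790841 and 3656662 counts per library, of which the members' pairs held between 20.8% and 24.9%.

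Most messenger RNAs end where the nascent transcript is cleaved and given a poly(A) tail, a little downstream of a hexamer that is most often AATAAA and next most often ATTAAA. Many genes hold more than 1 such site. A choice between sites within the last exon changes the length of the 3′ untranslated region (UTR) and leaves the protein as it is, whereas a site in an intron or in an alternative last exon ends the transcript early and can give a protein with another C-terminus.

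The annotation placed the paired ends as follows. The distal region was mostly 3′ UTR in 574 members (71.1%) and lay past the annotated gene end in 160 (19.8%). Proximal regions were more mixed, with 270 mostly in a 3′ UTR (33.5%), 227 mostly in a coding exon (28.1%), 211 in an intron (26.1%) and 55 in exons of non-coding transcripts (6.82%). The commonest pairs were 2 regions in 3′ UTR (204 members), an intron with a 3′ UTR (161) and a coding exon with a 3′ UTR (160). The gap between the regions had a median of 2981 bases with quartiles of 499.5 and 13704.5, and it was under 1000 bases in 271 members. In 658 members the distal region held more counts than the proximal one. A region of 231 members overlapped a region of another gene on either strand, and because the strand setting of the counting is not given in the sources used here, reads of the overlapping gene cannot be told apart at those ends.

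The 2 kinds of end differed in their signal letters. AATAAA or ATTAAA, searched on the gene's strand, stood in the 50 bases before the end position taken for 617 distal regions (76.5%) and 212 proximal regions (26.3%). The share was 69.7% among the 11417 regions of all genes with 200 or more counts and 22% among all 144910 regions of the files. Runs of 8 A, to which an oligo(dT) primer could bind within a transcript, were searched past the annotated end. Such a run stood in the part of the region past that end in 57 proximal regions (7.06%) and 29 distal ones (3.59%), against 5.89% of all regions. Bases before the annotated end and beyond the region were not searched for such runs. These shares do not tell how near the runs lay to the end. An end at exactly the end position taken was annotated for 62.7% of the proximal and 67.7% of the distal regions.

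**Figure D1:**
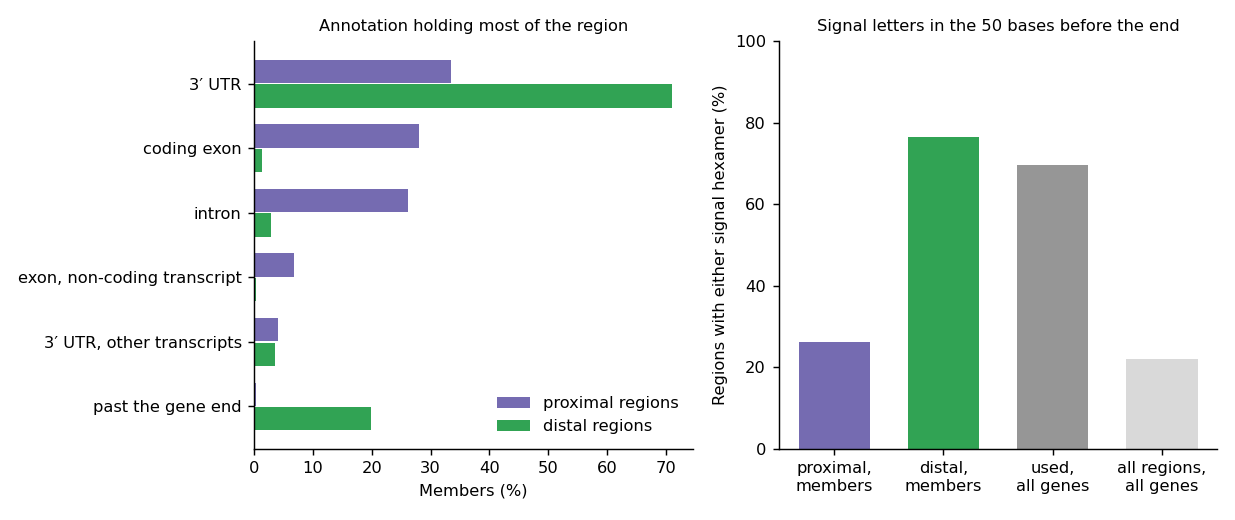
Left, percent of the 807 members whose proximal (purple) or distal (green) region lies mostly in each annotation class, with 3′ UTR at 33.5% and 71.1%. Right, percent of regions with AATAAA or ATTAAA in the 50 bases before the end, at 26.3% for proximal and 76.5% for distal regions of members, 69.7% for all regions with 200 or more counts and 22% for all regions.

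For the members the results turn on, 30 bases at both ends are given below from the GRCh37 genome, 5′ to 3′ on the transcript strand, with the signal hexamer in capitals. They run to the end position as taken above. The exceptions are stretches moved upstream to hold the hexamer, which stop 2 bases before it at the proximal end of *POLR1D*, 3 at the distal end of *SPON2* and 4 at the proximal end of *BCL2L13*. *POLR1D* is shown because both its ends carry the hexamer and the lines divided its transcripts differently. The ends lie at chr13:28197558-28197587 and chr13:28241519-28241548 on the plus strand.
POLR1D proximal: cttctAATAAAttccctcttttatttaaac
POLR1D distal: attaagtaaaAATAAAgctgaattgtgtca

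Likewise *SPON2* and *BCL2L13* have the hexamer at both ends. They are shown because the proximal region is mostly intron in the former and mostly 3′ UTR in the latter. The ends of *SPON2* lie at chr4:1192816-1192845 and chr4:1160723-1160752 on the minus strand. Those of *BCL2L13* lie at chr22:18186466-18186495 and chr22:18213359-18213388 on the plus strand. The bases printed for the proximal end of *SPON2* lie just upstream of the region that was classed.
SPON2 proximal: aacaaAATAAAttgtcttatttttctgata
SPON2 distal: gtttgAATAAAgactatctctgttgctcac
BCL2L13 proximal: tactgAATAAAatcctgaacatttgtctta
BCL2L13 distal: tatagaAATAAAacgttttgtagctaagaa

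The member *CCT4* stands for pairs in which only 1 of the ends has AATAAA or ATTAAA in the 50 bases searched. Its ends lie at chr2:62115083-62115112 and chr2:62095224-62095253 on the minus strand. The sequence of the end without these letters is in lower case throughout.
CCT4 proximal: ctattaAATAAActtcacttggcacaactg
CCT4 distal: aaatcttacttaaacaaaagggtttcttaa

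The usage of a pair is given below as its distal share, the counts of the distal region as a percentage of those of both regions, and differences of it are in percentage points. Before any comparison, 2 control libraries stood apart in usage. Libraries were correlated by the log2 ratio of distal to proximal counts, with 0.5 added to each, across 731 members with 10 or more pair counts in every library. These ratios of HepG2 control 2 had a Pearson's r of 0.74 to 0.78 with the other HepG2 libraries. Those of Ls174 control 1 had 0.73 to 0.77 with the other Ls174 libraries. The other 20 pairs of libraries of a line had r of 0.84 to 0.96 (a description, since the members share their libraries). The median distal share was 72.6%, 79.1% and 76.7% in the HepG2 control libraries and 74.0%, 71.3% and 73.0% in HepG2 HME. It was 88.8%, 78.1% and 75.3% in the Ls174 control libraries and 76.7%, 74.4% and 74.2% in Ls174 HME. Ls174 control 1 and HepG2 control 2 thus had the highest median of their lines, and results that rest on them are given with and without them. The 8 liver markers summed to between 11045 and 21813 CPM (counts per 1e+06 counts) in HepG2 and to between 0 and 143 CPM in Ls174 libraries. Ls174 control 3 held the 143 CPM and Ls174 HME 1 60.3 CPM, against at most 10.4 CPM in the other Ls174 libraries. The 8 intestinal markers summed to between 59.2 and 213 CPM in HepG2 and to between 394 and 501 CPM in Ls174. Of these, *VIL1* did not mark Ls174, with 45.4 to 191 CPM in HepG2 and 43.5 to 88.9 CPM in Ls174. In Ls174 *MUC2*, *CEACAM5* and *KRT20* reached at most 2.44, 6.38 and 0.379 CPM. HepG2 HME 2 alone held mesenchymal transcripts at 772 CPM, nearly all *COL1A1* and *COL1A2* with *DCN* and *LUM* at 0, against at most 10.2 CPM elsewhere. The 4 blood markers summed to between 89.4 and 174 CPM in HepG2 libraries, nearly all *CD74*, and to at most 1.44 CPM in Ls174, with the defining marker *PTPRC* at 0 in every library. The 2 endothelial markers summed to at most 3.74 CPM. The part of these transcripts in the results was not tested.

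**Figure D2:**
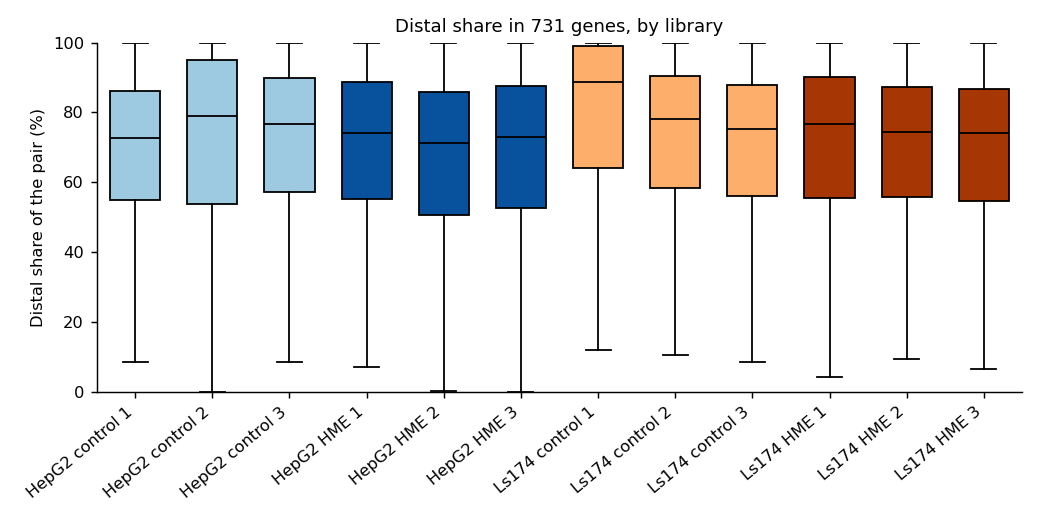
Distal share in percent of 731 members in each of the 12 libraries, with the median as a line, the quartiles as a box and whiskers to the furthest members within 1.5 box heights (members beyond are not drawn). Ls174 control 1 has the highest median, 88.8%, and the other libraries lie between 71.3% and 79.1%.

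The first question was whether HME moved the choice of 3′ end in either line. In HepG2 cells none of the 774 members tested passed an adjusted p of 0.05 in edgeR's quasi-likelihood test, against a background of 0% of all 1941 pairs of any biotype tested. At an unadjusted p under 0.05 there were 48 members (6.20%; background 7.11%), DESeq2 called 1 and limma called 0. The 3 HME libraries did not overlap the 3 control libraries in 113 members (14.6%; background 14.2%), 38 higher and 75 lower with HME. Both member counts lay near their backgrounds. The distal share was lower with HME in 527 members and higher in 247, with a median difference of -2.06 points, and across all pairs tested the median was -1.09. Without HepG2 control 2 there were 445 lower and 329 higher and the median was -0.56. The median SD of a member's distal share was 7.12 points among the control libraries and 3.91 among the HME libraries.

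In Ls174 cells none of 745 members tested passed an adjusted p of 0.05 in edgeR (background 0%), nor in DESeq2 or limma. There were 19 members at an unadjusted p under 0.05 (2.55%; background 2.76%), and the groups did not overlap in 120 (16.1%; background 14.1%), of which 22 were higher and 98 lower with HME. The distal share was lower with HME in 579 members and higher in 166, with a median difference of -3.39 points against -2.25 over all pairs tested. Without Ls174 control 1 there were 456 lower and 288 higher, and the median was -0.76. The median SD was 7.0 points among control and 2.91 among HME libraries. For the difference between the lines' responses, the interaction of line and HME, edgeR called 0 of 731 members (background 0%), as did DESeq2 and limma, and 21 had an unadjusted p under 0.05 (2.87%; background 3.24%).

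**Figure D3:**
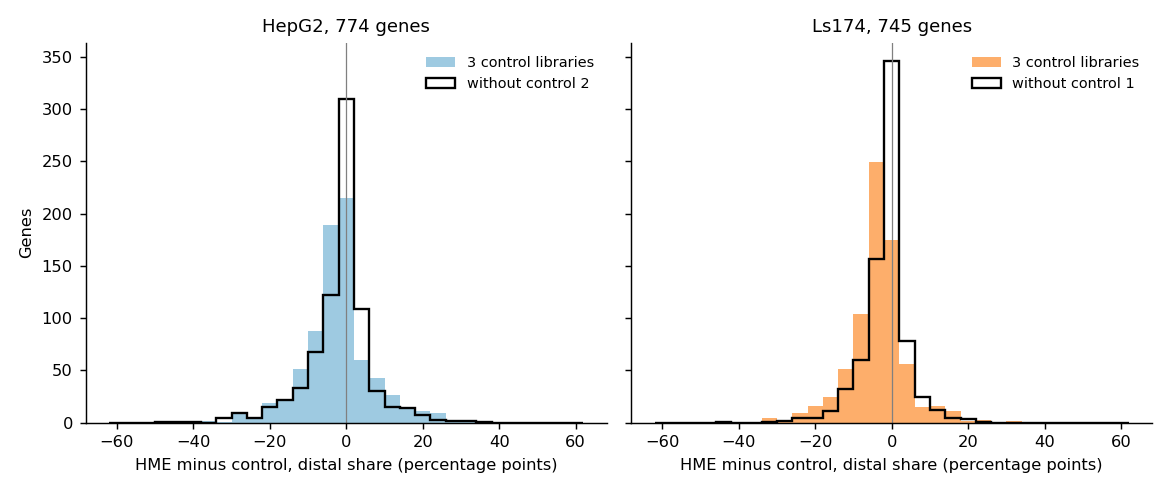
Number of members by the HME minus control difference of the distal share, in percentage points, in HepG2 (774 members) and Ls174 (745). Filled bars use all 3 control libraries and outlines leave out HepG2 control 2 or Ls174 control 1, which moves the median from -2.06 to -0.56 in HepG2 and from -3.39 to -0.76 in Ls174.

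The same shift was counted in large gene families with and without those libraries. Of 50 ribosomal protein genes among the members, 45 had a lower distal share with HME in HepG2 and 46 in Ls174, but 28 and 33 without HepG2 control 2 and Ls174 control 1. Of 35 genes of the respiratory chain and ATP synthase, 28 and 32 were lower, and 14 and 23 without those libraries. Of 14 proteasome genes, 13 were lower in each line, and 7 in each without them. Of 10 genes of apolipoproteins and liver plasma proteins, tested in HepG2 only, 8 were lower and 7 without HepG2 control 2. Of the 3′ processing factors, 8 of 10 were lower in HepG2 and 6 of 9 in Ls174, and 7 and 4 without those libraries. No gene of these lists was called for HME in either line.

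A few members, chosen after their values were seen, had HME libraries outside the range of the control libraries in both lines. Of 717 members tested in both, this held for 20 (2.79%; background 2.69%), with 14 in the same direction (1.95%; background 2.1%) and 6 in opposite directions, so the shares were near those of all pairs and the genes below are given as values. *TDP1*, which encodes tyrosyl-DNA phosphodiesterase 1, a repair enzyme for stalled topoisomerase, has a proximal end that lies in a 3′ UTR of other transcripts of the gene, as the annotation has it, and a distal end in its main 3′ UTR. Its distal share was 55.3%, 91.3% and 71.7% in HepG2 control and 51.5%, 32.4% and 27.3% in HepG2 HME libraries. In Ls174 it was 63%, 52.3% and 64.9% in control and 32.7%, 30.2% and 28.7% in HME libraries. The HME libraries were all below the control libraries in both lines, by 35.7 and 29.5 points, yet edgeR gave an adjusted p of 0.68 and 0.89. *STX4*, a plasma membrane SNARE of exocytosis, lay the other way, with 86.4%, 58.2% and 74.1% in HepG2 control against 95.1%, 95.4% and 93.1% in HME libraries. In Ls174 it had 72.2%, 62.7% and 67.0% in control and 82.2%, 86.8% and 81.4% in HME libraries. Its adjusted p in edgeR was 0.68 in HepG2 and 0.89 in Ls174. *VASP*, which promotes actin filament growth, had 51.9%, 62.7% and 37.1% in HepG2 control and 74.0%, 74.7% and 80.5% in HME libraries, and in Ls174 75.3%, 79.0% and 76.7% against 85.5%, 79.9% and 88.0%. Its Ls174 groups were apart by less than 1 SD of the control libraries. *MRPS30*, of the mitochondrial ribosome, had 15.6%, 34.6% and 16.2% in HepG2 control and 9.17%, 2.89% and 8.64% in HME libraries, with 20.6%, 29.3% and 19.7% against 10.8%, 12.7% and 11.6% in Ls174. *DCBLD2*, a membrane receptor-like protein, had 94.4%, 100% and 97.2% in HepG2 control and 81.0%, 82.2% and 74.6% in HME libraries, where the 100% is of 56 pair counts and allows a proximal share of up to 5.36%, and its distal region overlaps *ST3GAL6*. The other members apart in both lines in 1 direction were all lower with HME: *H2AFV*, *TROVE2*, *PHF10*, *RBM8A*, *WDR33*, *NUDT21*, *C11orf24*, *ASPH* and *SEPP1*.

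*NUDT21* encodes the small subunit of cleavage factor I, which favours distal sites. Its own distal share was 89.4%, 88.1% and 86.1% in HepG2 control and 76.8%, 79.8% and 86.1% in HME libraries, with the lowest control library just above the highest HME library. In Ls174 it was 87.7%, 85.4% and 86.6% in control and 79.8%, 74.4% and 77.3% in HME libraries. Neither difference passed, at an adjusted p of 0.83 and 0.89 in edgeR. *CSTF3*, a subunit of the cleavage stimulation factor whose early end gives a short protein, had means of 68.4% ± 14.8 (SD, n = 3) in HepG2 control and 87.0% ± 3.65 in HepG2 HME. The same gene had 54.1% ± 9.97 and 65.8% ± 8.51 in Ls174 control and HME. The differences of 18.6 and 11.8 points had an adjusted p of 0.71 and 0.89 in edgeR.

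The level of each end was then tested by itself, as CPM of a region after TMM scaling, over all 12809 regions tested in HepG2 and 12691 in Ls174. In HepG2, 15 of 770 proximal and 7 of 787 distal regions of members rose with HME and 3 distal regions fell, where 2.38% of all regions tested rose and 0.336% fell. Both ends rose in 3 members, *PLIN2*, which coats lipid droplets, *NFKBIA*, the inhibitor of NF-kB, and *NEDD9*, a scaffold of focal adhesions. The *PLIN2* proximal end was at 19.0, 26.6 and 21.4 CPM in control and 143, 108 and 130 CPM in HME libraries. Its distal end was at 393, 301 and 472 CPM in control and 2828, 2593 and 2505 CPM in HME libraries. The groups did not overlap at either end, the log2 fold changes were 2.51 ± 0.33 (SE) and 2.76 ± 0.34, and the adjusted p from edgeR was 0.0054 and 0.0044. With both ends up alike, its distal share was 94.3% ± 2.11 in control and 95.4% ± 0.51 in HME libraries. *NFKBIA* rose by 2.61 ± 0.47 at the proximal and 2.56 ± 0.46 at the distal end on the log2 scale (adjusted p = 0.024 and 0.023 in edgeR), from 5.88 to 37.4 CPM and from 157 to 929 CPM. The 2 regions of *NFKBIA* lie less than 200 bases apart.

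Other members of HepG2 passed the test at the proximal end only, and the test of the difference between their ends is the usage test above, which called none. *CCT4*, a subunit of the chaperonin that folds actin and tubulin, had 34.2, 23.5 and 36.4 CPM at its intronic proximal end in control and 108.7, 99.8 and 85.0 CPM in HME libraries (log2 fold change 1.63 ± 0.32, adjusted p = 0.032 in edgeR). At the distal end it had 223 ± 47.6 CPM (SD, n = 3) in control and 268 ± 57.4 in HME (0.27 ± 0.33, adjusted p = 0.68). *RASGRF2*, an exchange factor for Ras and Rac, had 11, 10.8 and 21.7 CPM at its intronic end in control and 66.7, 38 and 55.0 CPM in HME libraries (1.87 ± 0.40, adjusted p = 0.045). Its distal end was at 31.7, 93.2 and 42.3 CPM in control and 21.5, 26.8 and 22.7 CPM in HME libraries (-1.22 ± 0.43, adjusted p = 0.16). The distal share was thus 76.7% ± 12 in control and 31.6% ± 8.74 in HME, with no overlap, at an adjusted p of 0.68 for usage in edgeR, and the gene had at most 2 pair counts in any Ls174 library. *ZNF544*, a zinc finger gene, had the largest usage difference with HME of the 774 members in HepG2, from 62.5%, 87.5% and 63.9% in control to 18.8%, 19.0% and 9.84% in HME libraries (adjusted p = 0.68 in edgeR), and it was the 1 member that DESeq2 called. Its proximal end rose by 2.38 ± 0.48 on the log2 scale (adjusted p = 0.033).

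*RBBP6*, a cleavage and polyadenylation factor with a ubiquitin ligase domain, rose at its intronic end from 7.13 ± 3.98 to 33.0 ± 6.29 CPM (SD, n = 3; 2.14 ± 0.47 on the log2 scale, adjusted p = 0.046 in edgeR), and *ASPH*, whose early ends give the junctin and junctate proteins and whose distal end gives the aspartyl hydroxylase, from 39.6 ± 5.03 to 101 ± 5.81 CPM (1.34 ± 0.30, adjusted p = 0.048). The distal end of *ASPH* was at 33.2 ± 9.81 and 32.3 ± 9.46 CPM. *DCBLD2*, *HERPUD1*, *GABPB1*, *USP31*, *PLEKHO1*, *VRK3* and *AKR1C1* made up the rest of the proximal ends that rose. Among distal ends, *SQSTM1*, an autophagy receptor, rose from 249 ± 92.5 to 1093 ± 190 CPM (2.13 ± 0.39, adjusted p = 0.024). *WAC* and *ANKRD10* also rose distally, and *MPHOSPH9*, *ABCC6* and *ZMYM3* fell. Without HepG2 control 2 the number of member regions called was 64 in place of 25, and without any other library of the comparison it was 17 without control 1, 2 without control 3, and 2, 3 and 2 without HME 1, 2 and 3. The sum of all regions of a gene rose in 8 of 802 members (*PLIN2*, *NFKBIA*, *NEDD9*, *SQSTM1*, *GABPB1*, *PLEKHO1*, *WAC* and *VRK3*) and fell in *ZMYM3*, where 2.77% of all genes tested rose and 0.538% fell.

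In Ls174, no proximal region of a member was called and 8 distal regions were, 3 higher and 5 lower with HME, where 0.173% of all regions tested rose and 0.552% fell. *PLIN2* rose at the distal end from 38.7, 59.1 and 70.0 CPM in control to 456, 352 and 356 CPM in HME libraries (2.79 ± 0.27, adjusted p = 0.021 in edgeR), and its distal share was 96.4% ± 5.76 and 97.0% ± 0.67. *SQSTM1* and *AKR1C1*, an aldo-keto reductase, rose as well. *HSP90B1*, the HSP90 of the endoplasmic reticulum, fell from 411, 300.0 and 282 CPM to 80.0, 65.6 and 89.5 CPM at its distal end (-2.08 ± 0.24, adjusted p = 0.023), and *ALCAM*, *GLG1*, *NOMO3* and *MAN2A1* fell too. The 2 regions of *HSP90B1* lie less than 200 bases apart. Without Ls174 control 1 there were 85 member regions called, 2 without Ls174 control 3, and 0 without control 2 or any HME library. Summed over regions, 5 of 782 members rose (*PLIN2*, *SQSTM1*, *AKR1C1*, *HGD* and *KRT8*) and 4 fell (*HSP90B1*, *ALCAM*, *NOMO3* and *MAN2A1*), where 0.318% of all genes tested rose and 0.866% fell.

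The second question was whether the lines divided their transcripts differently. In HME-treated cells they did at 88 of 759 members (11.6%; 11.2% of all 1984 pairs tested), with the distal share higher in Ls174 at 54 (background 8.11%) and lower at 34 (background 3.07%). DESeq2 called 94 and limma 67, an unadjusted p under 0.05 was reached by 191 members (25.2%; background 25.8%), and the lines did not overlap in 261 (34.4%; background 32.7%). The members called thus made up nearly the same share as among all pairs. Their median absolute difference was 26.3 points with quartiles of 17.1 and 36.2 and a range of 0.413 to 92.7, 60 of them differed by 20 points or more, and the lines did not overlap in any of the 88. A region of another gene overlapped 29 of them, and 59 had no such overlap. Counted once per shared bases there were 86, since *SCLY* shares its ends with the read-through gene *UBE2F-SCLY* and *TMBIM4* is listed under 2 gene ids. The number rested on all libraries, with 73 called without HepG2 HME 1, 50 without HepG2 HME 2, 43 without HepG2 HME 3, 47 without Ls174 HME 1, 28 without Ls174 HME 2 and 36 without Ls174 HME 3.

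Members lower in Ls174, where the proximal end was used more, were led by *SAMD5*, *SPON2*, *PNKD*, *CRBN* and *BCL2L13*. *SPON2* encodes a secreted matrix protein, and its proximal end lies in an intron 31359 bases before the distal one (sequences above). In HepG2 HME its distal share was 80.9%, 92.5% and 90.3%, and in Ls174 HME 17.9%, 19.0% and 0%, the last from 17 pair counts, which allow up to 17.6%. The difference was -75.6 points, with a log2 odds ratio of -5.58 ± 0.79 (SE) and an adjusted p of 0.0097 in edgeR. *PNKD*, named for paroxysmal nonkinesigenic dyskinesia, has an intronic proximal end 71837 bases from its distal one. Its distal share was 71.0%, 74.3% and 66.4% in HepG2 HME and 19.4%, 12% and 16.7% in Ls174 HME, a difference of -54.6 points (log2 odds ratio -3.68 ± 0.35, adjusted p = 0.0035 in edgeR). *BCL2L13*, a mitochondrial receptor for autophagy, had 53.6%, 68.0% and 73.3% in HepG2 HME and 19.4%, 17.8% and 22.3% in Ls174 HME, and both its ends lie in 3′ UTR. That difference of -45.1 points (adjusted p = 0.010 in edgeR) had an adjusted p of 0.052 without Ls174 HME 2, the highest of its alternatives, which began at 0.00017.

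*SAMD5* and *CRBN* have a distal region that overlaps another gene, *RP11-307P5.1* on the same strand and *TRNT1* on the opposite one. *SAMD5* had 96.1%, 95.7% and 97.5% in HepG2 HME and 5.56%, 3.57% and 2.13% in Ls174 HME, the largest difference of all members (-92.7 points, adjusted p = 0.00044 in edgeR). Its distal region lies 167230 bases downstream, mostly past the gene end. *CRBN*, the substrate receptor of a cullin ubiquitin ligase that binds thalidomide, had 97.5%, 85.9% and 85.3% against 45.6%, 40.7% and 45.8% (-45.5 points, adjusted p = 0.015).

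On the other side, the members with a higher distal share in Ls174 were led by *ELP5*, *N4BP2L2*, *HAUS6*, *IFITM2* and *INF2*. *N4BP2L2* has an intronic proximal end, and its distal share was 31.4%, 27.7% and 19.3% in HepG2 HME and 87.4%, 77.5% and 74.6% in Ls174 HME. The difference of 53.7 points had a log2 odds ratio of 3.47 ± 0.45 and an adjusted p of 0.0070 in edgeR. *ELP5*, a subunit of the Elongator complex that modifies transfer RNA, had 10.3%, 28.6% and 14.5% against 90.6%, 92.0% and 94.9% (74.7 points, adjusted p = 0.0035), but its distal region overlaps *CLDN7* on the opposite strand, a claudin of epithelial tight junctions. *IFITM2*, an antiviral membrane protein, had 1.21%, 0.465% and 0% against 51.8%, 55.8% and 50% (52.0 points, adjusted p = 0.0023), where the 0% is of 191 pair counts and allows up to 1.57%, and its distal region overlaps *IFITM1* on the same strand. *HAUS6*, a subunit of the spindle complex augmin, had 58.5%, 17.6% and 25% against 86.5%, 89.5% and 81.7% (52.2 points, adjusted p = 0.024). Its 2 regions lie less than 200 bases apart, so they may be neighbouring stretches of 1 UTR, which was not tested. *INF2*, a formin that assembles actin, had 23.1%, 6.90% and 14.8% against 88.7%, 52.0% and 58.5% (51.5 points, adjusted p = 0.044). Between the lines these libraries do not overlap, but the calls of *HAUS6* and *INF2* were each kept in only 1 of 6 fits that left out a library, with adjusted p of up to 0.087 and 0.13 over all alternatives.

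**Figure D4:**
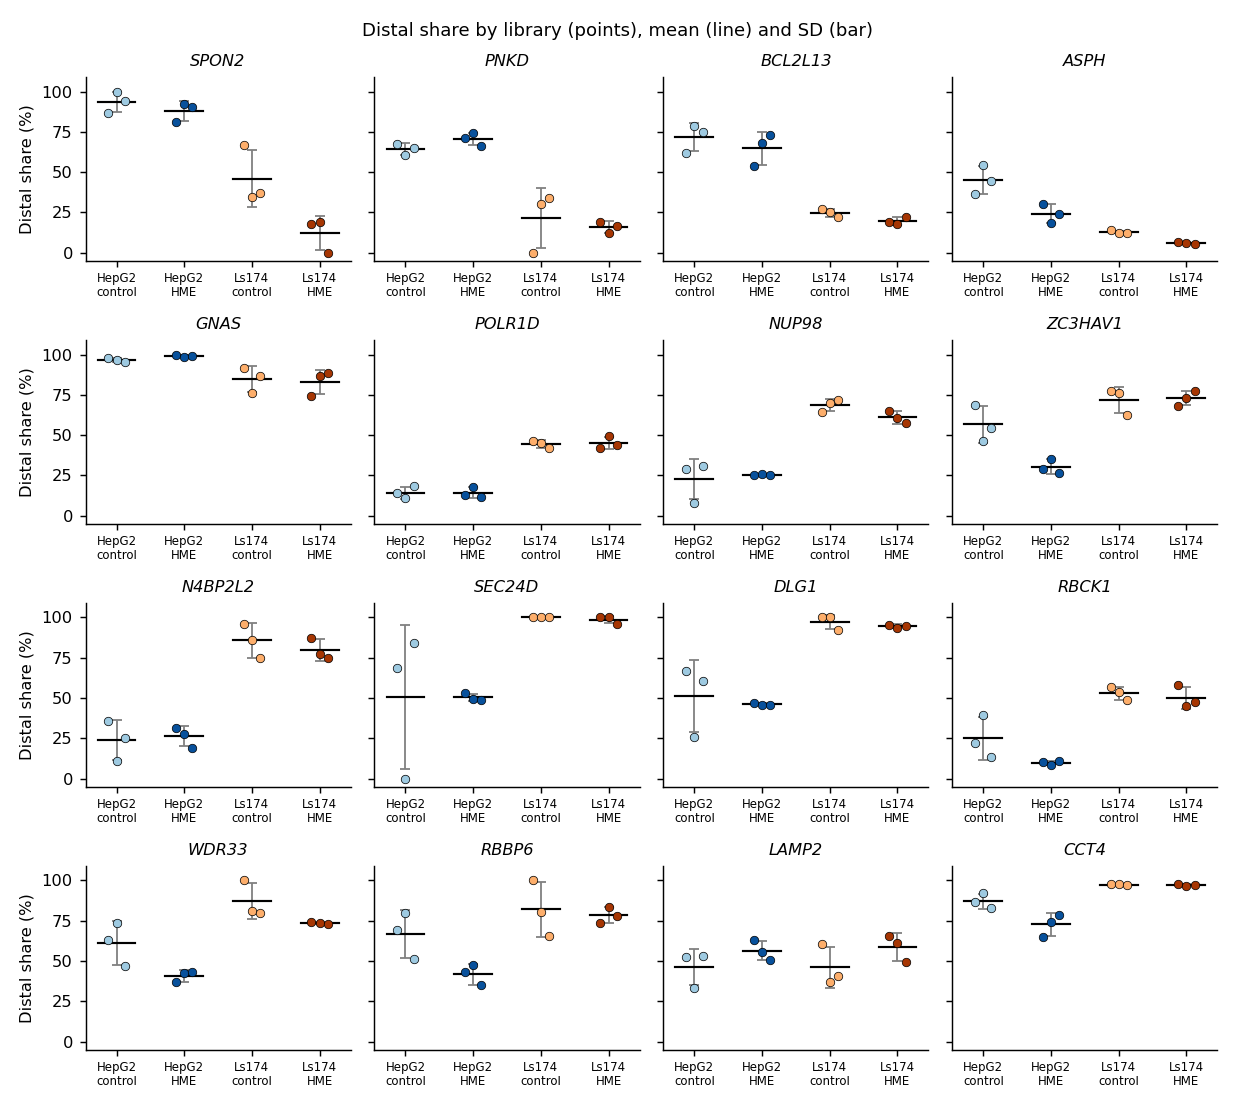
Distal share in percent by group for 16 members; points are libraries, the line is the mean and the bar the SD of 3 libraries. In HME cells *SPON2*, *PNKD*, *BCL2L13*, *ASPH* and *GNAS* lie lower in Ls174 than in HepG2, *POLR1D*, *NUP98*, *ZC3HAV1*, *N4BP2L2*, *SEC24D*, *DLG1*, *RBCK1*, *WDR33*, *RBBP6* and *CCT4* lie higher, and *LAMP2* overlaps between the lines.

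The proteins that cut and tail transcripts were themselves among the members. Of 26 genes listed as 3′ processing factors 10 were members, and 3 of these were called between the lines in HME cells, where 11.2% of all pairs tested were called. These 3 had a higher distal share in Ls174, but over the 10 factors 5 were higher and 5 lower. *WDR33*, the subunit that binds the AATAAA hexamer, had 36.7%, 42.4% and 43.0% in HepG2 HME and 73.9%, 73.6% and 72.9% in Ls174 HME (32.8 points, adjusted p = 0.0090 in edgeR), and its distal region overlaps *SFT2D3* on the opposite strand. *RBBP6* had 42.9%, 47.3% and 34.9% in HepG2 HME and 73.8%, 83.3% and 78.2% in Ls174 HME, a difference of 36.8 points with an adjusted p of 0.013. With the most proximal and most distal of its regions in place of this pair the difference was -15.3 points, with an adjusted p of 0.18, where the other alternatives began at 0.00070. *SSU72*, a phosphatase of the RNA polymerase II tail, had 86.6%, 82.5% and 83.4% against 91.4%, 92.2% and 93.2% (8.09 points, adjusted p = 0.035), and a region of it overlaps *AL645728.2*. Values for *NUDT21* were 80.9% ± 4.74 (SD, n = 3) in HepG2 HME and 77.2% ± 2.68 in Ls174 HME, for *PAPOLA*, the poly(A) polymerase, 56.5% ± 5.24 and 68.1% ± 8.07, and for *PABPC1*, the cytoplasmic poly(A)-binding protein, 94.2% ± 1.47 and 93.9% ± 0.742, none of them called. *CSTF3* came close, with 87.0% ± 3.65 and 65.8% ± 8.51 (adjusted p = 0.053). None of the 3 U1 snRNP protein genes and none of the 25 genes of the p53 target list used here, which does not hold *NFKBIA*, was a member.

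Several members whose 2 ends are known to give 2 proteins were chosen after their values were seen. *NUP98* ends early to give the nuclear pore protein NUP98 by itself and late to give the precursor of NUP98 and NUP96. Its distal share was 25.4%, 25.7% and 25% in HepG2 HME and 65%, 60.7% and 57.3% in Ls174 HME (35.7 points, log2 odds ratio 2.21 ± 0.29, adjusted p = 0.0070 in edgeR). *ZC3HAV1*, the zinc finger antiviral protein with a short form ZAPS and a long form ZAPL, had 28.9%, 35.4% and 26.4% against 68.3%, 73.0% and 77.1% (42.6 points, adjusted p = 0.0070). *TMPO*, whose early end gives LAP2-alpha and whose late end gives the membrane forms of this lamina protein, had 49.0%, 44.6% and 38.2% against 64.7%, 63.6% and 71.7% (22.7 points, adjusted p = 0.032), with adjusted p of 0.0098 to 0.10 over its alternatives. *ASPH* had 30.2%, 18.3% and 23.8% against 6.58%, 5.98% and 5.45% (-18.1 points, adjusted p = 0.0090), and its distal region overlaps *CLVS1*. In each of these genes the lines did not overlap.

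*POLR1D*, a subunit shared by RNA polymerases I and III, *RBCK1*, a subunit of the linear ubiquitin ligase, *DLG1*, a polarity scaffold, and *GNAS*, the stimulatory G protein alpha subunit, were also chosen after their values were seen and have no overlap with another gene. *POLR1D* had 13%, 18.1% and 11.6% in HepG2 HME and 42.3%, 49.5% and 43.7% in Ls174 HME, a difference of 30.9 points (log2 odds ratio 2.32 ± 0.30, adjusted p = 0.0068 in edgeR). *RBCK1* had 10.1%, 8.58% and 10.7% against 58.1%, 44.8% and 47.3%, a difference of 40.3 points from at least 346 pair counts per library (3.21 ± 0.27, adjusted p = 0.0025). *DLG1* had 46.8%, 46.0% and 45.6% against 95.6%, 93.4% and 94.9% (48.5 points, 4.34 ± 0.35, adjusted p = 0.0023). Its counts were thus divided nearly evenly in HepG2 and lay nearly all in the distal region in Ls174. *GNAS* was the reverse, with 99.5%, 98.3% and 98.8% against 74.2%, 86.4% and 88.4% (-15.9 points, adjusted p = 0.011). All 4 were called under every alternative in which they were tested. *ATXN2L*, an RNA-binding protein of stress granules, also chosen so, had 60.3%, 57.1% and 56.0% against 95.8%, 93.2% and 96.6% (37.4 points, adjusted p = 0.0035), and *SNX5*, a sorting nexin of endosomes, 82.9%, 88.9% and 86.0% against 97.7%, 97.3% and 98.3% (11.9 points, adjusted p = 0.0036). In *ATXN2L* the counts of the 3 HepG2 libraries were divided between both regions, while those of Ls174 lay mostly in the distal one. Its pair and that of *DLG1* were left out of 3 alternatives: a 500-count limit, signal letters at both ends, and no runs of 8 A. Whether priming at runs of A gave reads of these genes was not tested.

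Several of these calls were lost when 1 library was left out. Without Ls174 HME 2 the adjusted p in edgeR was 0.051 for *ASPH*, 0.052 for *WDR33*, 0.066 for *CRBN*, and 0.059 for *RBBP6* and *ZNF544*. Without Ls174 HME 3 it was 0.053 for *CRBN*, *RBBP6* and *ZNF544*. With any other library of HME cells left out each of these 5 stayed under 0.05. *TMPO*, *SSU72*, *HAUS6*, *DNAJB11*, *SLC2A11*, *INF2* and *RPS24* passed without only 1 of the 6 libraries, *RPL23* and *RPS29* without 3, and *RPL34* without none. Over these fits the adjusted p reached 0.12 for *SSU72*, 0.085 for *RPS24*, 0.081 for *RPL23* and *RPS29*, and 0.14 for *RPL34*.

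Among the remaining lists, *SEC24D*, of the COPII coat that leaves the endoplasmic reticulum, had 52.8%, 49.6% and 48.5% in HepG2 HME and 100%, 100% and 96.1% in Ls174 HME (48.3 points, adjusted p = 0.0052 in edgeR). The 100% in 2 libraries is of 76 and 56 pair counts, which allow a proximal share of up to 3.95% and 5.36%. *CCT4* had 65.2%, 74.2% and 78.6% in HepG2 HME and 97.5%, 96.5% and 97.4% in Ls174 HME, so the intronic end was nearly unused in Ls174 (24.5 points, log2 odds ratio 3.66 ± 0.33, adjusted p = 0.0030). *DNAJB11*, a co-chaperone of the endoplasmic reticulum, had 45.8%, 42.7% and 41.8% against 62.2%, 67.1% and 59.6% (19.6 points, adjusted p = 0.031). *CCT4* and *DNAJB11* were the called genes of 11 chaperones, *SEC24D* of 8 genes of vesicle traffic, and the glucose transporter family gene *SLC2A11* (41.4 points, adjusted p = 0.031) of 11 solute carriers. Of all pairs tested 11.2% were called. *ZNF544* (41.0 points, adjusted p = 0.016) and *ZNF511* (-21.5 points, adjusted p = 0.0014) were called of 6 zinc finger genes tested, and the distal region of *ZNF511* overlaps *PRAP1*. The calls of *DNAJB11* and *SLC2A11* were each kept in only 1 of 6 fits without a library, with adjusted p of up to 0.16 and 0.19 over all alternatives.

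Of the 50 ribosomal protein genes 4 were called, by small differences at very high counts, where 11.2% of all pairs tested were called. The distal share was lower in Ls174 HME for *RPL23*, by -7.90 points (adjusted p = 0.023 in edgeR), and for *RPS24*, by -7.09 points (adjusted p = 0.024). It was higher for *RPL34*, at 0.57% ± 0.18 in HepG2 HME and 1.3% ± 0.30 in Ls174 HME (adjusted p = 0.0496), and for *RPS29*, at 0.145% ± 0.071 and 0.558% ± 0.159 (adjusted p = 0.024), whose distal region overlaps *RPL32P29*. Ribosomal protein genes have many processed copies in the genome, so their reads may be divided between copies. No gene was called of 35 tested of the respiratory chain and ATP synthase, 14 of the proteasome, 14 translation factors, 7 SR proteins and hnRNPs, and 5 of the cytoskeleton. None was called either of the 5 members among 24 genes known for alternative ends, *LAMP2*, *TPM1*, *CALM2*, *NUDT21* and *CSTF3*. *LAMP2*, a lysosomal membrane protein whose alternative last exons set its tail, had 56.5% ± 6.10 in HepG2 HME and 58.7% ± 8.49 in Ls174 HME (adjusted p = 0.85), and in control cells 46.3% ± 11.2 and 46.1% ± 12.8.

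The share of members called differed with features of the pair, given here as a description. Where the proximal region lay in a 3′ UTR 48 of 255 members were called (18.8%), in an intron 26 of 199 (13.1%) and in a coding exon 6 of 208 (2.88%). With a signal hexamer at the proximal end 44 of 201 were called (21.9%) and without one 44 of 558 (7.89%). Pairs less than 1000 bases apart were called in 10 of 249 (4.02%) and pairs further apart in 78 of 510 (15.3%). With a run of 8 A past either end 9 of 78 were called (11.5%), 8 higher and 1 lower in Ls174, with a median absolute difference of 7.23 points against 4.43 over all members tested. Among them were *DLG1*, *ATXN2L*, *N4BP2L2*, *HAUS6* and *DNAJB11*, which were higher in Ls174, and *RPL23*, which was lower. Over these places of the proximal region the median absolute difference followed the order of the shares called, at 8.04 points for proximal 3′ UTR, 4.60 for intron and 2.81 for coding exon. Exons of non-coding transcripts broke this order, with 3.7% called and a median of 2.31 points.

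The control cells compared the same lines in 6 other libraries. There edgeR called 0 of 734 members (background 0%), DESeq2 called 29 and limma 2 (*IFITM2* and *CACNA2D4*, seen after the fact), 66 members had an unadjusted p under 0.05 (8.99%; background 11.9%), and the lines did not overlap in 155 (21.1%; background 22.6%). Without HepG2 control 2 and Ls174 control 1 edgeR still called 0, of 769 members tested, and 136 had an unadjusted p under 0.05. A fit of all 12 libraries with 1 line term for control and HME cells together, added after the data were seen, called 81 members, and 142 without those 2 libraries. It gives no value for the control cells by themselves. Of the 88 members called in HME cells, 81 could be tested in control cells, and 76 differed in the same direction (93.8%), 52 of them with no overlap of the lines (64.2%) and 40 with an unadjusted p under 0.05. Of 646 members not called in HME cells, 429 lay in the same direction (66.4%), 83 without overlap (12.8%) and 24 with an unadjusted p under 0.05. The 81 differed by a median of 25.2 points in HME and 17.8 points in control cells, and the median ratio of the control to the HME difference was 0.787. Because the 81 were picked on the HME libraries, this ratio does not show whether the lines differed less without HME. The 5 that lay in the opposite direction, named after their values were seen, were *ANKRD10*, *VRK3*, *UBE2D3*, *RNF149* and *ZNF544*, each within 2.80 points of 0 in control cells.

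**Figure D5:**
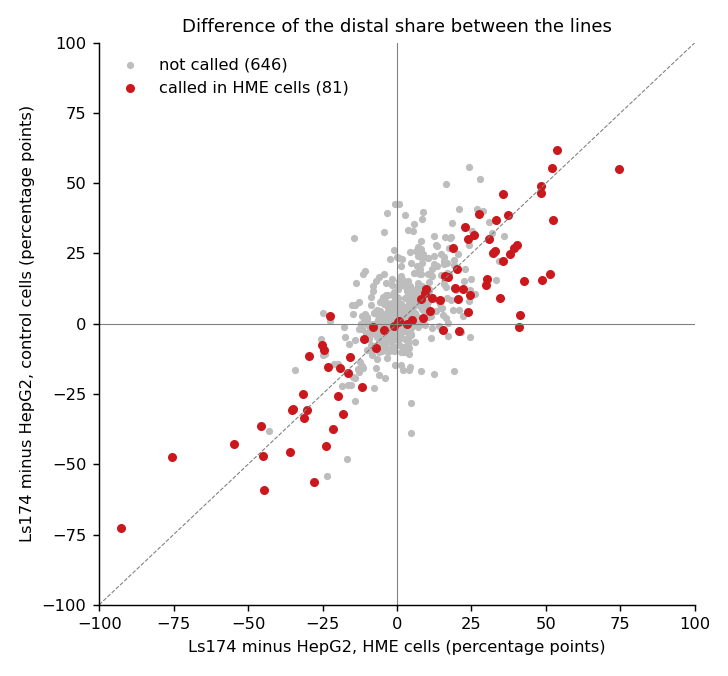
Ls174 minus HepG2 difference of the distal share, in percentage points, in HME cells (x) and in control cells (y), which share no library. Red points are the 81 members called in HME cells and grey points the 646 not called; 76 of the 81 lie on the same side of 0 on both axes, and the dashed line marks equal differences.

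For single genes the control libraries read as follows. *POLR1D* had 13.8%, 10.9% and 18.2% in HepG2 control and 46.1%, 45.3% and 41.8% in Ls174 control, 30.1 points apart in control and 30.9 in HME cells. *NUP98* had 29.1%, 8.16% and 30.6% against 64.3%, 69.8% and 71.8%, with HepG2 control 2 the lowest. *RBCK1* had 22.1%, 39.7% and 13.2% against 56.6%, 53.4% and 48.7%. In these 3 genes the libraries of the lines did not overlap, at an adjusted p in edgeR of 0.23, 0.24 and 0.36. *SPON2* had 86.8%, 99.7% and 94.0% against 66.7%, 34.4% and 37.1% (adjusted p = 0.27), and *CCT4* 86.7%, 92.0% and 82.8% against 97.8%, 97.6% and 96.8% (adjusted p = 0.23). *SEC24D* had 68.7%, 0% and 84.0% in HepG2 control, where the 0% is HepG2 control 2 with 38 pair counts, which allow up to 7.89%, and 100% in each Ls174 control library, where 18, 45 and 45 pair counts allow a proximal share of up to 16.7%, 6.67% and 6.67%. *ZNF544* did not separate the lines in control cells, with 62.5%, 87.5% and 63.9% against 48.9%, 80.6% and 81.4% (-1.0 points), and *INF2* overlapped as well, with 44.2%, 83.3% and 36.4% against 83.8%, 76.5% and 57.0%. Whether these 2 differed between treated and control cells was the interaction test, which called neither gene.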

How the data were processed

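RNA of HepG2 and Ls174 cells was read from the 3′ end (QuantSeq, Ion Proton) in 12 libraries, 3 per group, grouped by the sample labels and described by the study as biological replicates. The authors aligned reads to hg19 with HISAT2 and used metaseqR2, and deposited raw counts, 1 integer for each annotated 3′ region. The submitters' processing notes also name Bowtie2 and Trimmomatic. The version of metaseqR2 and its strand setting are not given in the sources used here.

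Regions listed under another gene id with the same coordinates and strand were dropped (717). A region was proximal or distal by strand. Usage was tested with edgeR 4.0.16 (quasi-likelihood F test, R 4.3.3) on the proximal and distal counts of each library, with the library as a block and distal by group as the term, on every pair of any biotype with 50 or more counts in both regions, at least 10 pair counts in each library compared and at least 20 counts of each region over them. Adjusted p values are Benjamini-Hochberg values over all pairs tested. The levels of regions and genes were tested with edgeR after TMM scaling and filterByExpr, over all regions or genes, and all tests are two-sided. Each line, and each treatment across lines, was fitted on its own 6 libraries, and the interaction on all 12. The fits were tested on simulated data. Annotation was GENCODE v44lift37 with the GRCh37 genome, and 798 members were found in it.

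Named genes are, per comparison, the 5 largest rises and 5 largest falls among called members whose groups do not overlap, called members of the gene lists, and the genes next to the 200-count limit. Others are said to be chosen after their values were seen, as were the genes named for the level of an end. The members and lists were chosen with earlier results of these data known. Ends at a share of 0 are given the limit that 3 counts of the total allow, which covers counting error only, since reads carry no molecular identifiers. Alternatives were DESeq2 1.42.0, limma 3.58.1 on log2 ratios (0.5 added to each count), other scalings, filters, count limits and pairs, no overlapping genes, the replicate number as a block, and each library left out. Python 3.11.15, pandas 2.3.3, numpy 2.4.6, pysam 0.24.0 and matplotlib 3.10.9 made tables and figures. Some called members and their sequences are not reported here.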

Additional observations from a re-analysis of the deposited data

Results flagged for a closer look

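In 6 members the HME libraries lay outside the range of the control libraries in both lines but in opposite directions, and edgeR's test of the interaction of line and HME gave each an adjusted p of 1. *ASAH1*, acid ceramidase, had a distal share of 74.8%, 81.1% and 79.7% in HepG2 control and 73.4%, 63.7% and 57.7% in HepG2 HME, against 29.4%, 36.1% and 39.5% in Ls174 control and 42.4%, 39.8% and 40.6% in Ls174 HME, so the change in Ls174 minus that in HepG2 was 19.5 points. *ATG9A*, a membrane protein of autophagy, went from 75.8% ± 7.34 (SD, n = 3) to 60.7% ± 12.1 in HepG2 and from 21.8% ± 1.67 to 37.2% ± 3.63 in Ls174, a difference between the changes of 30.6 points, with regions that overlap another gene. *FGFR1OP2* went from 26.6% ± 10.4 to 41.4% ± 0.828 in HepG2 and from 76.3% ± 10.6 to 57.7% ± 11.1 in Ls174, a difference of -33.3 points. *MCM3AP*, a scaffold of messenger RNA export, went from 90.1% ± 3.12 to 96.3% ± 3.23 and from 80.7% ± 6.68 to 71.9% ± 3.93, a difference of -15.0 points, also with an overlapping gene. *UGT1A8* and *UGT1A10*, which conjugate glucuronic acid and share their last exons and so most of their reads, differed by -15.0 and -11.7 points, with few counts in HepG2 (*UGT1A10* had between 20 and 40 pair counts in the control libraries).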

How the results depend on the processing

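The calls of usage for HME were 0 in both lines and in the interaction under every alternative except DESeq2 in HepG2, which called 1, and with any library left out. Between the lines in control cells edgeR's 0 became 29 with DESeq2, 2 with limma, 6 with at least 100 counts of each region, 7 with a 500-count limit, and between 0 and 1 without a library (*SAMD5*, without Ls174 control 1). Alternatives chosen after seeing the data gave 7 with signal letters at both ends and 0 without both libraries that stood apart. A fit of 12 libraries with 1 line term for control and HME cells together called 81, and 142 without those 2 libraries, which is no count for control cells alone. In HME cells the 88 became 43 with a 500-count limit, 52 without overlapping genes and 45 with signal letters at both ends (each with fewer pairs to test), and between 28 and 73 without a library. Also chosen after seeing the data, leaving out pairs with runs of 8 A gave 74 of 681 members tested. Leaving out gaps under 200 bases gave 89 of 630. *RBBP6* turned to -15.3 points with its most distant pair. For single regions the calls were 77 and 47 (HepG2 and Ls174) with DESeq2 and 83 and 56 with no filter beyond 1 count, 13 in HepG2 with library size only, and between 2 and 64 and between 0 and 85 without a library. For summed genes they were 49 and 30 with DESeq2, 43 and 44 with no filter, and between 2 and 43 and between 0 and 63 without a library. The causes of these changes were not tested.

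Deviations of the log2 ratios of distal to proximal counts from their group means were correlated between same-numbered control and HME libraries. The correlations were -0.18, 0.040 and -0.14 in HepG2 and 0.13, -0.0021 and 0.24 in Ls174. Not every library correlated best with its own number, so the numbers were not taken as pairs. With the replicate number as a block usage calls were 0, region calls 12 in HepG2 and 0 in Ls174, and gene calls 6 and 0. No such block was fitted between the lines, whose cultures share only a number. Depth limits the weakest ends, with a floor of 10 pair counts per library.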
